A study of Homo sapiens with 48 samples.

Results

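GBP1, GBP2, GBP3, GBP4 and GBP5 are the guanylate-binding proteins examined here, 5 genes of the 37706 in the deposited count table, taken by their gene symbols. The 5 were selected on their measured CPM and treatment effects across the 16 groups of line and treatment, so their levels and fold changes are given as a description, and a call is only a mark of size against error. RNA came from 4 established human lymphoma lines of the GCB-DLBCL class (diffuse large B cell lymphoma that resembles germinal centre B cells), SUDHL6, Oci-Ly7, Oci-Ly8 and Oci-Ly18, in 48 libraries. In each line the study set 3 treatments against the vehicle, DMSO, with 3 libraries in each of the 16 groups. The treatments were the EZH2 inhibitor GSK343 with the DOT1L inhibitor EPZ-5676 (the combination), GSK343 alone (EZH2i) and EPZ-5676 alone (DOT1Li), for 6 days with reseeding in fresh medium and inhibitor at day 3. Each line is a single established line, no normal B cells were used here, and doses are not stated in the labels. The study asked how both enzymes act on the identity of germinal centre B cells.

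Guanylate-binding proteins are large GTPases that cells make in response to interferon, above all interferon-gamma, through its receptor, the JAK kinases and transcription factors that include IRF1. They assemble on bacteria in the cytosol and on vacuoles that hold pathogens, and help to set off inflammasomes. GBP1, GBP2 and GBP5 carry a C-terminal signal for a lipid anchor (prenylation). EZH2 is the enzyme of the Polycomb complex that silences genes by methylating histone H3 at lysine 27, and DOT1L methylates histone H3 at lysine 79 in the bodies of transcribed genes.

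The 5 genes lie side by side on chromosome 1 (GRCh38), in the order GBP3 (ENSG00000117226, 89006679 to 89022894), GBP1 (ENSG00000117228, 89051882 to 89065360), GBP2 (ENSG00000162645, 89106132 to 89150456), GBP4 (ENSG00000162654, 89181144 to 89198942) and GBP5 (ENSG00000154451, 89256189 to 89272860). The span of GBP2 overlaps that of its relative GBP7 (89131742 to 89176009). RefSeq promoters (GRCh38.p14) were matched for 3 of the 5 members, all on the minus strand. The 250 bases before each start are shown because these genes are read side by side in the results and interferon acts through short elements near a start. Capitals mark matches, on either strand, to the core of the interferon-stimulated response element (GAAA, then NN, then GAAA), or to the gamma-activated site, TTCNNNGAA. No match of one motif overlapped a match of the other.
GBP1 (chr1:89065209-89065458): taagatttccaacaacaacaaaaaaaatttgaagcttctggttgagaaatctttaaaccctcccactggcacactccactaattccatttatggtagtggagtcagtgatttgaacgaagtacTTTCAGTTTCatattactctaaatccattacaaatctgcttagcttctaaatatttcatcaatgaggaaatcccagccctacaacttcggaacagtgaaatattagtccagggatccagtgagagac
GBP3 (chr1:89022867-89023116): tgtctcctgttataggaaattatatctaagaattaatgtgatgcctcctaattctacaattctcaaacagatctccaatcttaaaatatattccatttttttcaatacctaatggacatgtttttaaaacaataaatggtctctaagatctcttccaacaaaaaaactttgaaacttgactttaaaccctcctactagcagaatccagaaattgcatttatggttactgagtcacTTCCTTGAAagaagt
GBP4 (chr1:89198943-89199192): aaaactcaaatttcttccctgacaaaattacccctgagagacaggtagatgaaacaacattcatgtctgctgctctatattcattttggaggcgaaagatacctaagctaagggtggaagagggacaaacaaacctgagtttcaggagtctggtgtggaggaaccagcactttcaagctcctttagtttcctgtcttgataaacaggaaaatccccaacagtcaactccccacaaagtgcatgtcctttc
GBP1 had 1 match to the interferon-stimulated core, on the opposite strand and 118 to 127 bases before the start, and none to TTCNNNGAA. GBP3 had 1 match to TTCNNNGAA, 7 to 15 bases before the start. The RefSeq starts of GBP1 and GBP3 lie within the gene spans given above, and so do both matches. The window of GBP4 held neither. Of 35116 promoter windows of this length, 3.02% held the interferon-stimulated core and 6.57% held TTCNNNGAA. A match describes letters only.

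Library totals ran from 5174269 to 18845074 counts, with Oci-Ly8 DOT1Li replicate 3 the shallowest and the next at 11391942. Levels are CPM, counts scaled to a common library total, given as mean ± SD of 3 libraries unless single libraries are listed. Long transcripts were under-represented in Oci-Ly8 replicate 3 of DMSO and of DOT1Li (log2 CPM gained 0.723 and 0.758 per doubling of exonic length, and at least 0.821 elsewhere). The combination and EZH2i effects of GBP4 and GBP5 in Oci-Ly8 are given with and without this pair. Other Oci-Ly8 effects and gene list counts are not given without it. The labels do not say whether replicates were separate cultures, so tests measure the spread between these libraries, which may be technical. The B cell markers MS4A1, CD79A, CD79B, PAX5 and CD22 were present in every library, the lowest value being 37.96 CPM, of CD79B. In bulk RNA, fewer cells with a transcript and less of it per cell cannot be told apart. A count of 0 in a group allows up to 3 counts, 0.0632 CPM in Oci-Ly7 DMSO, and such limits cover counting error only.

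The 4 highest group means of GBP1, GBP2, GBP4 and GBP5 were those of SUDHL6, though the libraries of SUDHL6 DMSO and the Oci-Ly8 combination overlapped in GBP5. Of GBP2, SUDHL6 had 42.2 ± 14.7 CPM in the combination, 35.2 ± 8.10 in EZH2i, 7.62 ± 2.78 in DOT1Li and 5.19 ± 0.880 in DMSO, while the highest mean elsewhere was 0.308 ± 0.0669, in the Oci-Ly18 combination. GBP5 was at most 0.0643 CPM in every group of Oci-Ly7 and Oci-Ly18, with 3 counts at most in a group. In DMSO alone, all 5 members differed between lines (edgeR F test, adjusted p under 0.05), beside 93.1% of all genes tested. The order of the DMSO means was SUDHL6, Oci-Ly18, Oci-Ly8, Oci-Ly7 for GBP1 and GBP4, and Oci-Ly8, SUDHL6, Oci-Ly18, Oci-Ly7 for GBP3. Among them the libraries of Oci-Ly18 and Oci-Ly8 overlapped in GBP1, and those of Oci-Ly8 and SUDHL6 in GBP3.

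**Figure D1:**
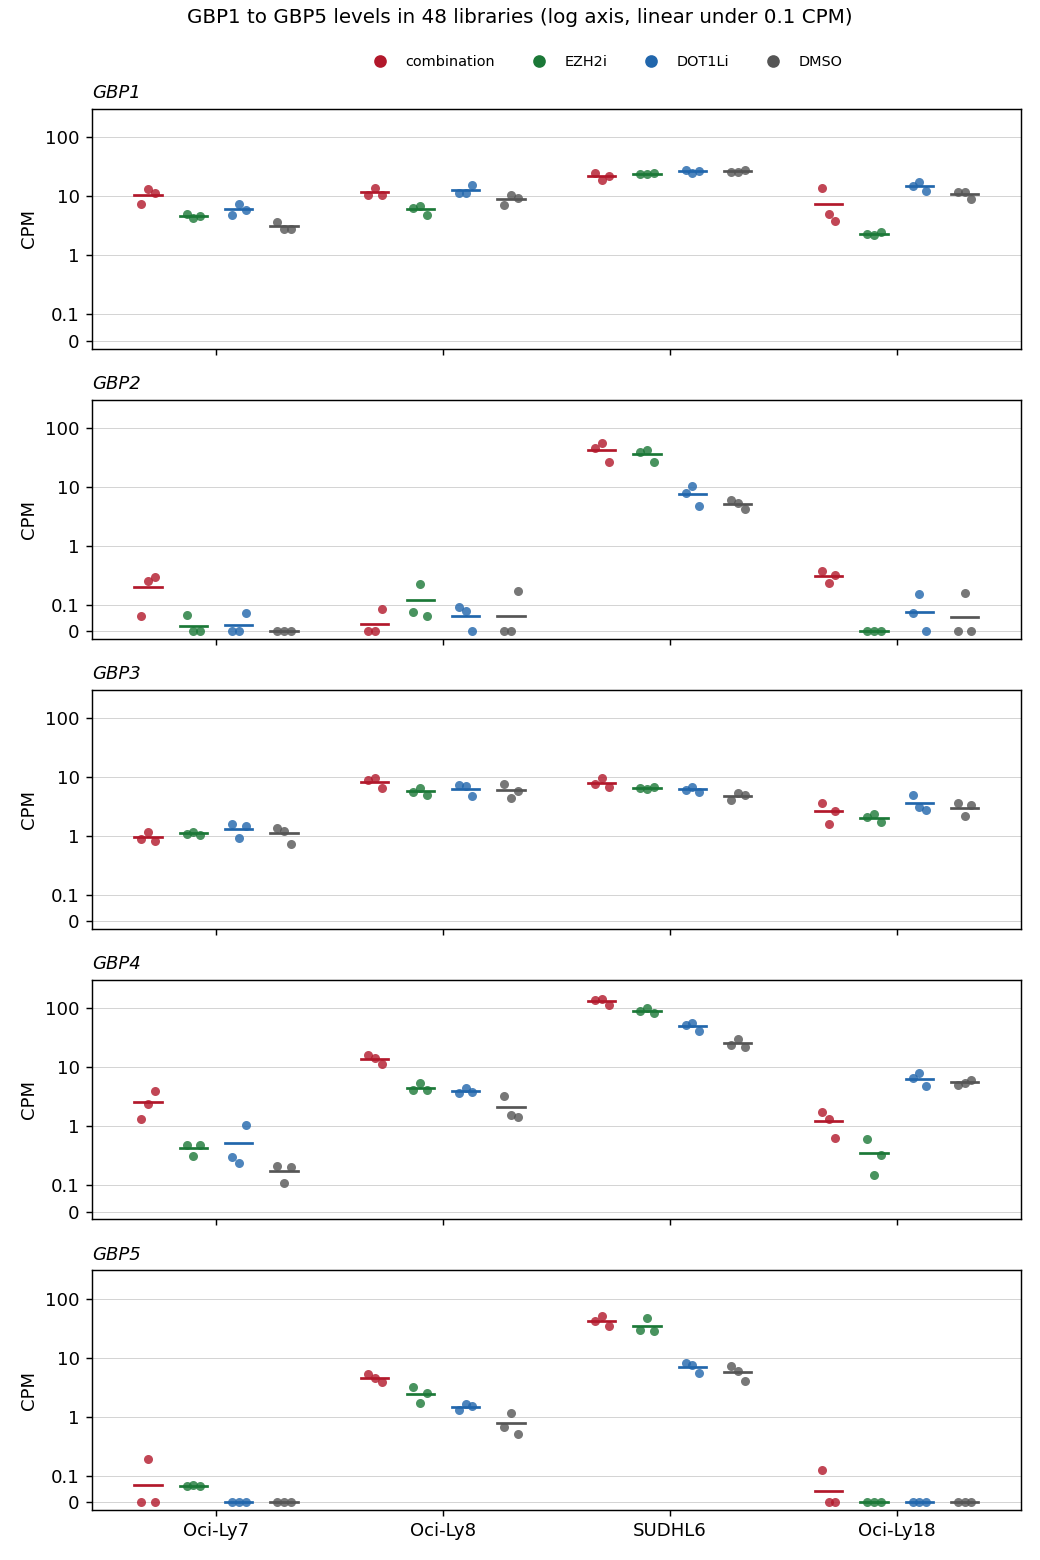
CPM of each member in each of 48 libraries (points; log axis, linear under 0.1 CPM) with group means (bars), for the combination, EZH2i, DOT1Li and DMSO from left to right in each line. GBP2, GBP4 and GBP5 stand highest in SUDHL6 EZH2i and combination libraries, while GBP4 falls to 0.359 CPM with EZH2i in Oci-Ly18, against 5.55 in DMSO.

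GBP4, which joins the coat that GBP1 builds on bacteria and helps caspase-4 there, moved in all 4 lines, up in 3 and down in 1. In SUDHL6 it had 139, 145 and 115 CPM in the combination, 88.6, 99.9 and 82.4 CPM in EZH2i, 51.4, 56.7 and 40.6 CPM in DOT1Li, and 24.1, 29.9 and 22.2 CPM in DMSO. No group of SUDHL6 overlapped another, and the order of the 4 was combination, EZH2i, DOT1Li, DMSO. The log2 fold change over DMSO was 2.39 ± 0.17 (SE) in the combination, 1.83 ± 0.16 in EZH2i and 0.96 ± 0.17 in DOT1Li, all called. These effects share the DMSO libraries.

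The same gene was far lower in the other lines. In Oci-Ly8 it had 15.9, 14.5 and 11.3 CPM in the combination, 4.11, 5.43 and 4.05 in EZH2i, 3.68, 4.40 and 3.87 in DOT1Li, and 3.26, 1.56 and 1.46 in DMSO. Every combination library was above all others, and DMSO replicate 1 came closest to the single inhibitors. The log2 fold change over DMSO was 2.71 ± 0.27 in the combination, 1.09 ± 0.32 in EZH2i and 0.93 ± 0.36 in DOT1Li, the last not called. That DOT1Li effect was 1.41 and called without DMSO replicate 1, and was called in the DESeq2 test (0.95), without the filter on low counts (0.92) and with the replicate block (0.89). Without the pair of libraries low in long transcripts the combination effect was 2.56 and still called, while the EZH2i effect was 0.92 and no longer called. That EZH2i call was lost as well without DMSO replicate 2 (0.90), DMSO replicate 3 (0.91) or EZH2i replicate 2 (0.95).

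In Oci-Ly7 GBP4 was near the limit of detection in DMSO, with 0.208, 0.110 and 0.202 CPM (8 counts in all). The combination had 1.35, 2.38 and 4.02 CPM, above every other Oci-Ly7 library and 14.6-fold higher than DMSO (log2 fold change 3.86 ± 0.58, called). EZH2i libraries had 0.485, 0.313 and 0.488 CPM and DOT1Li libraries 0.298, 0.243 and 1.05, against the same DMSO values, and neither was called. Here DOT1Li replicate 3 stood above the other DOT1Li libraries.

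In Oci-Ly18 the direction was the opposite. GBP4 had 1.78, 1.34 and 0.642 CPM in the combination and 0.604, 0.148 and 0.326 CPM in EZH2i, against 5.06, 5.49 and 6.10 CPM in DMSO. Both groups lay wholly under DMSO, with log2 fold changes of -2.14 ± 0.34 in the combination and -3.97 ± 0.46 in EZH2i (15.7-fold lower). DOT1Li, at 6.50, 7.88 and 4.87 CPM, overlapped DMSO (0.21 ± 0.25, not called).

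GBP1, the member that binds bacterial lipopolysaccharide and starts the coat, changed in Oci-Ly7 and Oci-Ly18 and was not called against DMSO in Oci-Ly8 and SUDHL6. In Oci-Ly7 it had 7.499, 13.5 and 11.2 CPM in the combination, 4.97, 4.26 and 4.57 in EZH2i, 4.83, 7.36 and 5.86 in DOT1Li, and 3.75, 2.80 and 2.83 in DMSO. All treated libraries lay above all DMSO libraries, and the combination stood highest. Its effect was called (log2 fold change 1.78 ± 0.28), while those of EZH2i (0.57 ± 0.32) and DOT1Li (0.95 ± 0.31) were not. The DOT1Li effect was called in the DESeq2 test (0.94), with the replicate block (0.96) and without the filter on low counts (0.95). It was also called in the fit of the 12 Oci-Ly7 libraries alone (0.94) and without DOT1Li replicate 1 (1.09). Leaving out Oci-Ly18 combination replicate 1 or 3 gave a call as well (0.95). The EZH2i effect was called without the filter (0.57).

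In Oci-Ly18 GBP1 had 2.33, 2.22 and 2.48 CPM in EZH2i, against 11.7, 12.1 and 9.04 CPM in DMSO, 4.63-fold lower (log2 fold change -2.21 ± 0.31, called). The combination libraries were spread, at 13.7, 5.11 and 3.85 CPM, with replicate 1 above every DMSO library and the others below. Their effect over DMSO was -0.51 ± 0.25 and not called. It was called without the filter on low counts (-0.53), and was -1.30 and called without combination replicate 1. In that library IFNG, the gene of interferon-gamma, had 0.490 CPM, against 0.0785 and 0.0642 CPM in the other combination libraries. Its part in the level of GBP1 was not tested. DOT1Li libraries had 15.3, 17.6 and 12.3 CPM, above DMSO, with an effect of 0.47 ± 0.24 that was not called. Without the filter on low counts that effect was called (0.46).

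In SUDHL6 GBP1 was at 21.9 ± 2.78 CPM in the combination, 24.3 ± 0.724 in EZH2i and 26.9 ± 1.52 in DOT1Li, against 26.7 ± 0.916 in DMSO. The log2 fold changes were -0.28 ± 0.20, -0.14 ± 0.20 and 0.01 ± 0.20, in the line where GBP2, GBP4 and GBP5 rose. All combination and EZH2i libraries lay under every DMSO library, and the fit of the 12 SUDHL6 libraries alone called the combination lower (-0.31). In Oci-Ly8 the values were 11.8 ± 1.98 CPM in the combination, 6.06 ± 1.11 in EZH2i and 12.8 ± 2.33 in DOT1Li, against 9.07 ± 1.72 in DMSO. EZH2i libraries lay under all DMSO libraries and DOT1Li libraries above them, with effects of -0.60 ± 0.27 and 0.44 ± 0.26, and neither was called, although the EZH2i effect was called without Oci-Ly18 combination replicate 1 (-0.60) or without the filter on low counts (-0.59).

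GBP2 and GBP5, prenylated members found at the Golgi that hamper the maturation of viral envelope proteins, moved in parallel in SUDHL6. GBP2 had 45.9, 54.8 and 26.035 CPM in the combination, 38.5, 41.2 and 26.02 in EZH2i, 7.79, 10.3 and 4.77 in DOT1Li, and 5.98, 5.36 and 4.24 in DMSO. GBP5 had 41.6, 50.1 and 34.2 CPM in the combination, 29.01, 46.1 and 27.6 in EZH2i, 8.02, 7.40 and 5.44 in DOT1Li, and 7.06, 6.02 and 3.99 in DMSO. For both genes the combination and EZH2i libraries overlapped each other and stood apart from the DOT1Li and DMSO libraries, which overlapped too.

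The log2 fold change of GBP2 over DMSO was 3.02 ± 0.23 in the combination (8.12-fold), 2.76 ± 0.23 in EZH2i (6.78-fold) and 0.55 ± 0.26 in DOT1Li. That of GBP5 was 2.88 ± 0.21 in the combination (7.36-fold), 2.59 ± 0.21 in EZH2i (6.02-fold) and 0.28 ± 0.24 in DOT1Li. For both genes the DOT1Li effect was not called, although that of GBP2 was without the filter on low counts (0.56) and with the replicate block (0.54). In all SUDHL6 groups replicate 3 had the lowest GBP5 level. T cell markers summed to 14.4 to 17.9 CPM in the SUDHL6 combination and 11.2 to 15.4 in EZH2i, against 8.10 to 8.33 in DMSO, with CD2, CD3D and CD8A at 0. NK cell markers summed to 5.98 to 7.35 and 5.94 to 6.64 CPM, against 3.31 to 4.69, with GNLY at 0. Endothelial or stromal markers summed to 13.1 to 16.2 CPM in the combination and 6.46 to 9.36 in EZH2i, against 5.63 to 6.17 in DMSO, with none at 0 throughout. Myeloid markers summed to 20.4 to 22.8 CPM in the combination and 13.9 to 15.4 in EZH2i, against 18.3 to 19.8 in DMSO. The part of these transcripts in the effects was not tested.

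Outside SUDHL6, GBP5 was detected in Oci-Ly8 and GBP2 hardly at all. In Oci-Ly8 GBP5 had 5.16, 4.58 and 3.87 CPM in the combination, 3.16, 1.71 and 2.49 in EZH2i, 1.29, 1.62 and 1.51 in DOT1Li, and 0.667, 1.13 and 0.515 in DMSO. The groups did not overlap, and stood in the same order as GBP4 in SUDHL6. The log2 fold change over DMSO was 2.51 ± 0.38 in the combination, 1.63 ± 0.41 in EZH2i and 0.90 ± 0.50 in DOT1Li, the last not called. Without the pair of libraries low in long transcripts the EZH2i effect was 1.45 and not called and the combination effect 2.35 and called. NK cell markers in Oci-Ly8 summed to 5.11 to 6.37 CPM in the combination, 1.68 to 2.16 in EZH2i and 2.03 to 3.40 in DOT1Li, against 0.778 to 1.37 in DMSO. Endothelial or stromal markers summed to 66.7 to 82.1 CPM in the combination, 17.4 to 24.4 in EZH2i and 71.1 to 90.1 in DOT1Li, against 33.1 to 50.3 in DMSO. No marker of either list was at 0 throughout the line, and their part in the GBP4 and GBP5 effects was not tested.

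Of GBP2, the Oci-Ly7 combination had 10 counts over its libraries, against 0 in DMSO, which is at least 3.15-fold higher, taking 3 counts as the group's floor. The Oci-Ly18 combination had 14 counts, at 0.367, 0.236 and 0.321 CPM, against 0 counts in EZH2i (at least 4.23-fold higher) and 2 in DMSO. Neither bounded difference was called in the main edgeR fit, and both were called with DESeq2 (adjusted p = 0.00725 and 0.00561). With edgeR both were called without the filter on low counts, with the replicate block and in the fits of 1 line. The GBP2 counts of Oci-Ly8 were 1 in the combination, 5 in EZH2i, 2 in DOT1Li and 2 in DMSO.

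GBP3, a member without the prenylation signal and recruited to the GBP1 coat, was called against DMSO in 1 comparison. In SUDHL6 it had 7.68, 9.53 and 6.72 CPM in the combination, against 4.13, 5.42 and 4.94 CPM in DMSO, without overlap (log2 fold change 0.72 ± 0.19, called). The means of EZH2i, 6.55 ± 0.244 CPM, and DOT1Li, 6.15 ± 0.554 CPM, lay between, with libraries of both overlapping the combination, and their effects of 0.44 ± 0.20 and 0.35 ± 0.20 were not called. The EZH2i effect was called with the replicate block (0.44) and in the fit of the 12 SUDHL6 libraries alone (0.41). In Oci-Ly8 the combination had 8.30 ± 1.53 CPM, against 5.98 ± 1.59 in DMSO (0.48 ± 0.20, not called). It was called in the DESeq2 test and with DESeq2 size factors (0.52 in both), without the filter on low counts (0.49) and with the replicate block (0.48). Of 48 fits that each left out 1 library, 6 called it, among them the fit without DMSO replicate 1 (0.70). In Oci-Ly18 GBP3 ran from 2.05 ± 0.338 CPM in EZH2i to 3.61 ± 1.12 in DOT1Li, and in Oci-Ly7 from 0.962 ± 0.173 in the combination to 1.33 ± 0.368 in DOT1Li, with no call.

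Over the 20 pairs of member and line, the combination was called higher than DMSO in 8 and lower in 1, EZH2i higher in 5 and lower in 2, and DOT1Li higher in 1 and lower in 0. Over all 17749 tested genes and 4 lines, 19.9% of pairs were called higher and 14.9% lower with the combination, 11.2% and 7.64% with EZH2i, and 3.01% and 2.03% with DOT1Li. No member was lower with DOT1Li at an unadjusted p under 0.05 either, nor in the DESeq2 test. The count higher with DOT1Li was 3 in the DESeq2 test, 4 with the replicate block and 5 without the filter on low counts. The effect differed between lines in 2 of the 5 members for EZH2i, GBP1 and GBP4, beside 24% of all genes, and in 3 for the combination, GBP1, GBP3 and GBP4, beside 43.8% (edgeR F test). For DOT1Li it was 0 members by this test at either an adjusted or an unadjusted p under 0.05, beside 5.14% of all genes, but 1 with the replicate block and 2 without the filter. The test was not run with DESeq2.

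**Figure D2:**
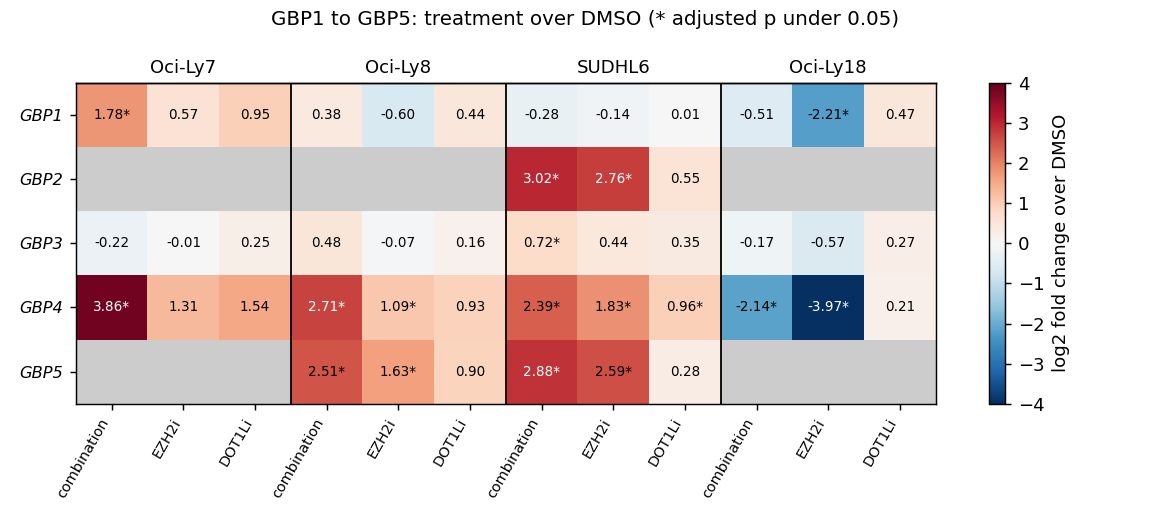
Log2 fold change over DMSO of each member (rows) under the combination, EZH2i and DOT1Li in each line (columns), with * at an adjusted p under 0.05. Grey cells have 3 counts or fewer in either group. GBP4 runs from -3.97 in Oci-Ly18 EZH2i to 3.86 in the Oci-Ly7 combination.

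The combination was also set against each inhibitor alone. Over DOT1Li it was called higher in 7 pairs of member and line and lower in 2, beside 12.3% and 8.88% of all pairs. Over EZH2i it was higher in 9 and lower in 0, beside 6.54% and 5%, with none lower at an unadjusted p under 0.05 or in the DESeq2 test. GBP4 stepped up over EZH2i in every line, with log2 fold changes of 2.56 ± 0.47 in Oci-Ly7, 1.63 ± 0.23 in Oci-Ly8, 0.56 ± 0.15 in SUDHL6 and 1.83 ± 0.62 in Oci-Ly18. GBP1 was higher by 1.21 ± 0.26 in Oci-Ly7, 0.97 ± 0.26 in Oci-Ly8 and 1.71 ± 0.32 in Oci-Ly18. In Oci-Ly8 GBP5 was higher by 0.88 ± 0.30 and GBP3 by 0.55 ± 0.20. For GBP2 and GBP5 in SUDHL6 the step over EZH2i was 0.26 ± 0.19 and 0.29 ± 0.18, within the overlap of the libraries, and not called, although that of GBP5 was called without EZH2i replicate 2 (0.57).

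Several of these steps depended on 1 library or on the fit. The Oci-Ly18 step of GBP1 was 0.92 and still called without combination replicate 1, and was not called in the fit of the 12 Oci-Ly18 libraries alone (1.70). The SUDHL6 step of GBP4 was not called in the DESeq2 test (0.57), nor without EZH2i replicate 1 (0.55) or 3 (0.50) or combination replicate 1 (0.53) or 2 (0.49). Its Oci-Ly18 step was lost without EZH2i replicate 2 (1.47) or 3 (1.78) or combination replicate 1 (1.44) or 2 (1.79). In Oci-Ly8 the GBP1 step was lost without EZH2i replicate 3 (0.82) or combination replicate 2 (0.82), and that of GBP5 without EZH2i replicate 2 (0.70) or 3 (0.90) or combination replicate 1 (0.78) or 2 (0.88). The step of GBP3 was lost in 25 of 48 fits that each left out 1 library, at 0.44 to 0.64.

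Against DOT1Li the combination was higher for GBP2 (2.47 ± 0.22), GBP5 (2.60 ± 0.21) and GBP4 (1.42 ± 0.16) in SUDHL6, GBP4 (1.78 ± 0.26) and GBP5 (1.62 ± 0.36) in Oci-Ly8, and GBP4 (2.33 ± 0.46) and GBP1 (0.83 ± 0.25) in Oci-Ly7. The last of these was lost without DOT1Li replicate 1 (0.69), combination replicate 2 (0.64) or combination replicate 3 (0.79). In Oci-Ly18 the combination was lower for GBP4 (-2.35 ± 0.33) and GBP1 (-0.97 ± 0.24), with overlapping libraries in GBP1. The value of GBP1 was -1.76 without combination replicate 1 and -0.64 without combination replicate 3, both called, and it was not called in the fit of the 12 Oci-Ly18 libraries alone (-0.98).

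Both single effects added on the log2 scale were set against the combination, and no departure from the sum was called in the 20 pairs with edgeR or DESeq2, beside 0.0747% of all pairs above the sum and 0.0592% below. At an unadjusted p under 0.05 there were 2, both above the sum and both in Oci-Ly18, GBP1 (1.24 ± 0.41) and GBP4 (1.62 ± 0.68). For GBP1 the departure was 0.45 without combination replicate 1, and 1.57 and called without combination replicate 3. In SUDHL6 the departures of GBP2, GBP4 and GBP5 were -0.29 ± 0.32, -0.40 ± 0.22 and 0.01 ± 0.31.

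Levels per kilobase of exonic length allow the members to be set against each other. In the SUDHL6 combination the order was GBP4 (21.7 ± 2.65 CPM per kilobase), GBP2 (6.73 ± 2.34), GBP5 (5.15 ± 0.982), GBP1 (4.39 ± 0.556) and GBP3 (1.86 ± 0.332). In SUDHL6 DMSO it was GBP1 (5.35 ± 0.183), GBP4 (4.14 ± 0.649), GBP3 (1.12 ± 0.151), GBP2 (0.828 ± 0.140) and GBP5 (0.699 ± 0.192). GBP1 thus led in DMSO, while the means of GBP4, GBP2 and GBP5 stood above its mean in the combination. There the libraries of GBP1 overlapped those of GBP2 and GBP5, and replicate 3 had GBP1 above both. In the other lines the mean of GBP1 was the highest of the 5 in every group except EZH2i in Oci-Ly8 and EZH2i in Oci-Ly18, where GBP3 led.

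The other genes of the cluster were low. GBP6, a relative of unclear role here, had 0.658, 0.729 and 0.917 CPM in the SUDHL6 combination and 0.214, 0.455 and 0.462 in EZH2i, against 0, 0.119 and 0.127 in DMSO. Its log2 fold change was 3.08 ± 0.64 (adjusted p = 0.000303) in the combination and 2.08 ± 0.72 (adjusted p = 0.0378) in EZH2i, and it had at most 3 counts in any group of the other lines. It passed the filter on low counts only through the SUDHL6 combination (12, 12 and 15 counts), so its rise there was partly set by the filter. GBP7, which did not pass the filter on low counts, had 0.482 ± 0.235 CPM in the SUDHL6 combination, against 0.104 ± 0.132 in DMSO, and no counts in the other lines. GBP1P1, a pseudogene of GBP1, had 0.965 ± 0.175 CPM in the SUDHL6 combination, against 0.557 ± 0.107 in DMSO (0.77 ± 0.41, adjusted p = 0.139). Reads of these near-identical relatives can be split between them by the counting, whose rules the labels do not give.

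Of 11 tested neighbours of the cluster, fixed by position, at most 3 were called in any one line and direction. LRRC8C, a subunit of volume-regulated anion channels, rose with the combination in all 4 lines, by 0.53 ± 0.11 in Oci-Ly7, 0.63 ± 0.10 in Oci-Ly8, 0.53 ± 0.09 in SUDHL6 and 0.40 ± 0.12 in Oci-Ly18. GTF2B, a general transcription factor, had 50.9 CPM in the SUDHL6 combination, against 69.5 in DMSO (-0.45 ± 0.08, adjusted p = 9.06e-06), and was not called in the other lines. LMO4, a transcriptional adaptor, rose with the combination in Oci-Ly7 (0.66 ± 0.11), Oci-Ly8 (0.73 ± 0.11) and Oci-Ly18 (0.70 ± 0.10). In SUDHL6, where 4 members were called higher with the combination, 1 listed neighbour was called higher and 1 lower, beside 22.6% and 16.8% of all genes. GBP6, not in the list, was called higher there as well.

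**Figure D3:**
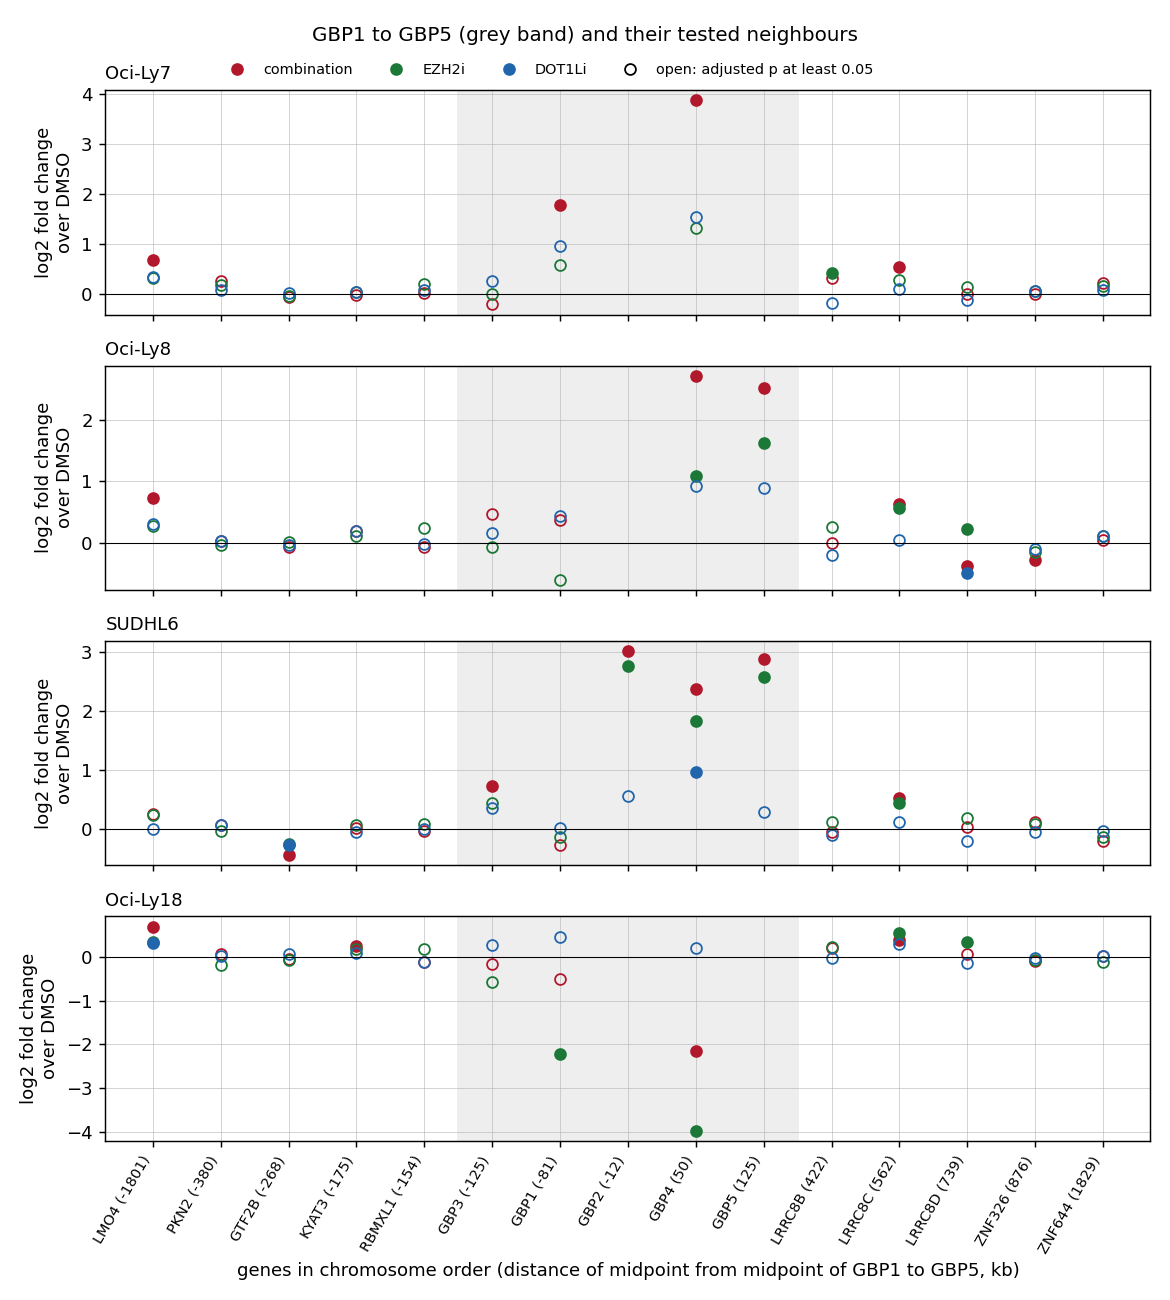
Log2 fold change over DMSO of the members (grey band) and of neighbouring genes in chromosome order, by line. The number after a gene is the distance in kb from the middle of GBP1 to GBP5. Filled points have an adjusted p under 0.05, and groups with 3 counts or fewer have no point. LRRC8C lies between 0.40 and 0.63 in the combination, while GBP4 spans -2.14 to 3.86.

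The pathway that induces the family was read from lists of its parts. IFNG had no count in any SUDHL6 library. In Oci-Ly7 it had 0.507, 2.44 and 3.55 CPM in the combination (107 counts), against 0 counts in DMSO, at least 33.7-fold higher, and it did not pass the filter for testing. Of the 3 combination libraries, replicate 1 had the least IFNG and also the least GBP1 (7.499 CPM) and GBP4 (1.35 CPM). T cell markers summed to 12.7 to 19.1 CPM in the Oci-Ly7 combination, against 51.3 to 60.8 in DMSO, with CD3D and CD8A at 0 in every library of the line. NK cell markers summed to 6.71 to 10.1 CPM, against 3.62 to 4.86, with NCR1 at 0. Endothelial or stromal markers summed to 100.3 to 117 CPM in the combination, against 69.9 to 76.8 in DMSO, with COL3A1 at 0. Myeloid markers summed to 1.13 to 2.51 CPM in the combination, against 0.202 to 0.439 in DMSO. What part such transcripts have in the GBP levels was not tested.

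IFNGR1, the ligand-binding chain of the receptor, was present in all lines, at 13.6 to 39.97 CPM by group. IFNGR2, the chain that brings in JAK2, had 1 count in each group of SUDHL6, whereas the DMSO means were 46.9 CPM in Oci-Ly7, 56.0 in Oci-Ly8 and 30.7 in Oci-Ly18. It fell with the combination by 0.34 ± 0.08 in Oci-Ly8 and 0.34 ± 0.09 in Oci-Ly18. IRF8, a partner of IRF1 that B cells of the germinal centre express, was also low in SUDHL6, at 5.30 ± 0.98 CPM in DMSO, against 290, 191 and 292 CPM in Oci-Ly7, Oci-Ly8 and Oci-Ly18.

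IRF1, which binds the response elements of interferon-induced genes, moved in 3 lines with the combination. It rose by 0.96 ± 0.13 in Oci-Ly7 and 0.81 ± 0.13 in Oci-Ly8 (adjusted p = 3.6e-08 and 1.4e-06), and fell by 0.36 ± 0.12 in Oci-Ly18 (adjusted p = 0.0163). With EZH2i in Oci-Ly18 it fell by 0.42 ± 0.12 (adjusted p = 0.00882), to 34.04 CPM, against 45.5 in DMSO. IRF8 fell with the combination by 1.36 ± 0.12 in Oci-Ly7, 0.99 ± 0.12 in Oci-Ly8 and 0.82 ± 0.12 in Oci-Ly18, and rose by 1.20 ± 0.18 in SUDHL6, to 12.1 CPM.

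Among kinases and regulators, JAK2 rose with the combination in SUDHL6 (0.64 ± 0.11), Oci-Ly18 (0.36 ± 0.11) and Oci-Ly8 (0.30 ± 0.11). JAK1 rose in Oci-Ly18 (0.49) and Oci-Ly8 (0.37). SOCS1, the feedback inhibitor of JAK kinases, rose in Oci-Ly7 (0.86 ± 0.25). PIM1, the kinase that restrains GBP1 by phosphorylation, rose in Oci-Ly7 (0.69 ± 0.16) and Oci-Ly8 (0.48 ± 0.18) and was lower in Oci-Ly18 (-0.45 ± 0.17). Of the MHC regulators, NLRC5 (class I) rose in Oci-Ly7 and Oci-Ly8 (0.49 and 0.51), and CIITA (class II) rose in Oci-Ly8 (0.99), SUDHL6 (0.31) and Oci-Ly18 (0.30) and was lower in Oci-Ly7 (-0.51).

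**Figure D4:**
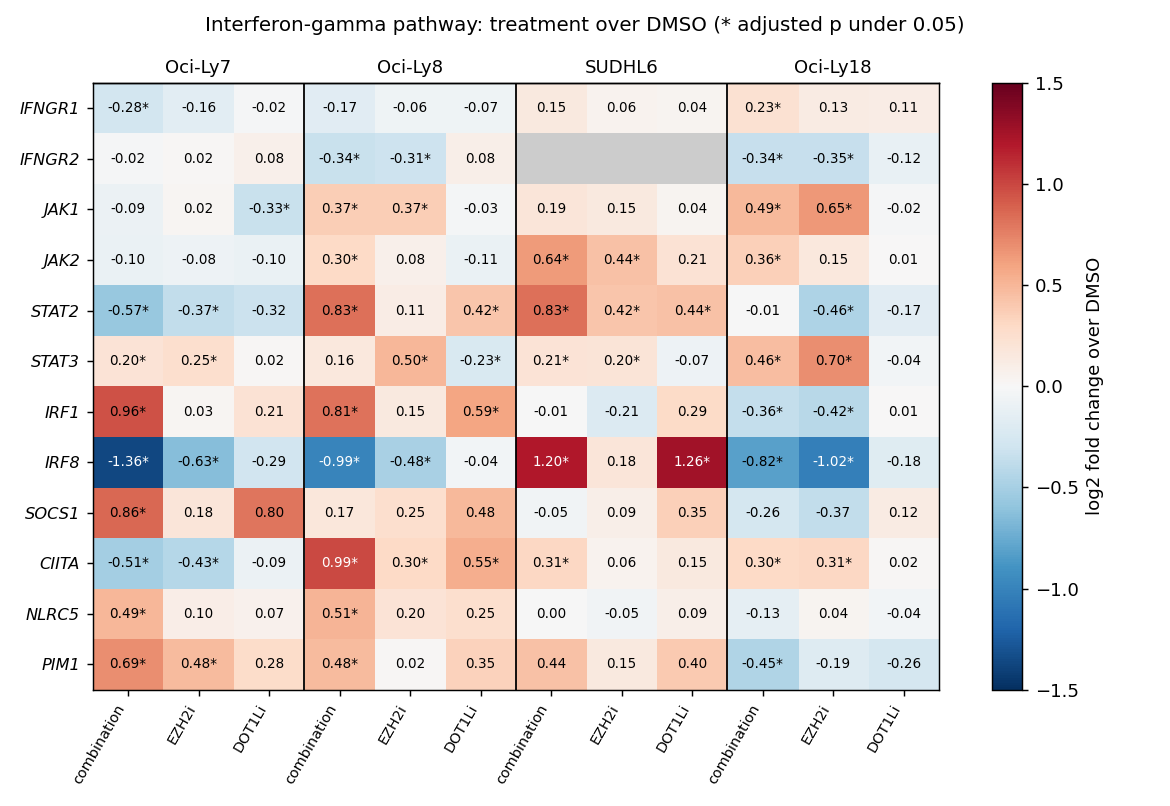
Log2 fold change over DMSO of genes of the interferon-gamma pathway (rows) by treatment and line (columns), with * at an adjusted p under 0.05. IFNGR2 is grey in SUDHL6, where each group has 1 count. IRF8 is lower in the combination in Oci-Ly7, Oci-Ly8 and Oci-Ly18 and higher in SUDHL6, at 1.20.

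Of the 18 tested signalling genes, the combination raised 6 and lowered 4 in Oci-Ly7, raised 9 and lowered 2 in Oci-Ly8, raised 5 in SUDHL6, and raised 5 and lowered 5 in Oci-Ly18. The shares of all genes called higher and lower were 17.7% and 12.2% in Oci-Ly7, 18.1% and 16.9% in Oci-Ly8, 22.6% and 16.8% in SUDHL6, and 21.1% and 14% in Oci-Ly18. The 23 tested effectors that interferon-gamma induces, GBP genes left out, had a median log2 fold change of 0.35 in Oci-Ly8, with 14 higher and 2 lower, or 0.32 with genes that have a group at 0 counts set at their bound, beside a median of 0 over all genes. In Oci-Ly7, where GBP1 and GBP4 were called higher, 3 were higher and 5 lower (median -0.05, or -0.08 with such genes at their bound). In SUDHL6 3 were higher and 6 lower, among them ICAM1, an adhesion molecule (-0.91 ± 0.10), PSME2, a subunit of the proteasome activator (-0.67 ± 0.09), and XAF1, a pro-apoptotic factor (0.56 ± 0.14), so that genes of this list went both ways in the line where GBP2, GBP4 and GBP5 rose.

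In Oci-Ly18 the effectors fell with EZH2i in 10 cases and rose in 1, with a median of -0.22, beside 9.04% and 13% of all genes. APOL3, a lipid-binding protein, fell to 14.1 CPM, against 36.004 in DMSO (-1.35 ± 0.15, adjusted p = 8.09e-10), in the line and treatment where GBP1 and GBP4 were called lower. With the combination 9 fell and 3 rose. XAF1 rose with the combination in all 4 lines, by 4.22 ± 0.68 in Oci-Ly7, 3.14 ± 0.14 in Oci-Ly8, 0.56 ± 0.14 in SUDHL6 and 0.33 ± 0.13 in Oci-Ly18.

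Of 27 tested genes better known for type I interferon, the combination raised 25 in Oci-Ly8 (median 1.72) and raised 11 and lowered 2 in Oci-Ly7 (median 0.94, or 0.72 with genes that have a group at 0 counts set at their bound). In SUDHL6 it raised 5 and lowered 4 (median 0.11), and in Oci-Ly18 it raised 9 and lowered 7 (median 0.22). The shares of all genes called with the combination are those given above beside the signalling genes. With EZH2i 19 rose in Oci-Ly8 (median 0.72, or 0.60 with genes at their bound), beside 9.04% of all genes called higher and 7.94% lower. In Oci-Ly18 14 fell and 3 rose with EZH2i (median -0.61), beside 9.04% of all genes called lower and 13% higher. USP18, which removes ISG15, rose with the combination by 3.25 ± 0.23 in Oci-Ly8, 2.53 ± 0.35 in Oci-Ly18 and 2.25 ± 0.42 in Oci-Ly7. MX1, a dynamin-like GTPase as the GBP family is, rose with the combination in all 4 lines, by 1.12 ± 0.25 in Oci-Ly7, 4.14 ± 0.21 in Oci-Ly8, 1.10 ± 0.22 in SUDHL6 and 2.07 ± 0.24 in Oci-Ly18.

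With each line's mean subtracted, the pattern of log2 CPM over the 48 libraries was compared between genes. The libraries share lines, treatments and depth, so these correlations are descriptions. Between members Pearson's r was 0.70 for GBP1 and GBP4, 0.64 for GBP2 and GBP5, 0.51 for GBP4 and GBP5 and 0.03 for GBP1 and GBP5. Within SUDHL6 (12 libraries) GBP1 ran against GBP2, GBP3, GBP4 and GBP5, at -0.77, -0.76, -0.75 and -0.78, while GBP2 and GBP5 had 0.98. The genes most like each member outside the family, among those averaging 1 or more in log2 CPM, were FCRL2 (0.80), GLRA3 (0.79) and GUCD1 (0.76) for GBP1, and TCTN1 (0.86), PTPRM (0.82) and ENPP3 (0.82) for GBP2. For GBP3 they were GCSAM (0.65), ERO1B (0.63) and SERINC3 (0.63), for GBP4 BRD8 (0.82), FAM111A (0.79) and IFIH1 (0.79), and for GBP5 ZMAT1 (0.85), PCNX4 (0.84) and ELL2 (0.84).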

How the data were processed

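RNA was sequenced from polyA-selected, stranded libraries, per the labels' protocols. The values are raw read counts per gene, deposited by the authors as 1 table. The submitters' processing notes name STAR, DESeq2 and GRCh38 (hg38), without versions. No source used here gives the counting program, strand setting or annotation, so overlapping genes such as GBP2 and GBP7 are uncertain.

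Genes passing edgeR's filter over the 16 groups (17749 of 37706) were fitted over 48 libraries with TMM scaling and tested by the quasi-likelihood F test (edgeR 4.0.16, limma 3.58.1, R 4.3.3), with 32 residual degrees of freedom and Benjamini-Hochberg adjustment over the tested genes. A call is an adjusted p under 0.05. Log2 fold changes are given with the standard error from the F statistic. CPM used TMM-scaled totals, and correlations used log2 CPM with a prior count of 2. Library totals of 5174269 to 18845074 counts set the precision of low values. Lengths are GENCODE exonic lengths, and tables were handled with Python 3.11.15 and pandas 2.3.3. The fit was tested on simulated counts. Alternatives were DESeq2 1.42.0, its size factors, no filter, a replicate block, fits per line and leaving out libraries. Deviations from group means correlated above 0.1 in all 3 same-numbered pairs for DOT1Li and DMSO in Oci-Ly8 (0.238 to 0.415), the combination and DOT1Li in Oci-Ly7 (0.132 to 0.232) and the combination and EZH2i in SUDHL6 (0.118 to 0.182), so the numbers were taken to pair these libraries. Below that limit too, libraries correlated best with their own number, in all 18 pairs of each line. The fit over 48 libraries used no replicate block. The labels do not say what a number marks.

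The members and gene lists were chosen with earlier results of these data known. Named beside the members were GBP6, GBP7, GBP1P1, fixed parts of the interferon-gamma pathway, up to 4 genes per list with the smallest adjusted p averaged over lines, neighbours of the cluster, and the 3 genes most correlated with each member. Some genes of these lists are not reported here.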

Additional observations from a re-analysis of the deposited data

Results flagged for a closer look

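The effects of treatment differed between the 4 lines for GBP1, GBP3 and GBP4 (edgeR quasi-likelihood F test of the difference, adjusted over all tested genes). For EZH2i the adjusted p was 4.45e-05 for GBP1, with log2 fold changes from -2.21 in Oci-Ly18 to 0.57 in Oci-Ly7, and 3.44e-11 for GBP4, from -3.97 in Oci-Ly18 to 1.83 in SUDHL6. For the combination it was 1.38e-05 for GBP1, from -0.51 in Oci-Ly18 to 1.78 in Oci-Ly7. It was 0.0468 for GBP3, where SUDHL6 alone was called (0.72), and 1.61e-12 for GBP4, from -2.14 in Oci-Ly18 to 3.86 in Oci-Ly7. The members were chosen with these effects known, and 24% of all genes differed between lines for EZH2i and 43.8% for the combination.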

How the results depend on the processing

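No value of a member changed direction after a call in 6560 values under other settings, and 6429 moved by less than 1 SD. Of 35 called effects 28 were called in each of 48 fits that left out 1 library, and of 17 against DMSO 16 were. Of 112 counts of calls under the other settings 100 stayed within 1.5 times. Shifts within that limit included the pairs called higher with the combination. Without the filter these also took in GBP2 in Oci-Ly7 and Oci-Ly18, and GBP1 and GBP3 in Oci-Ly8. The replicate block added the same pairs except GBP1 in Oci-Ly8. Without the filter, the members called higher with DOT1Li came to 5 pairs, lower with the combination to 2, above the sum of the single effects to 2, and differing between lines for DOT1Li to 2. With the replicate block they came to 4 pairs higher with DOT1Li and 1 member differing between lines for DOT1Li. The interferon-gamma genes (signalling and effectors, 41 tested, 164 pairs of gene and line) then came to 16 pairs higher and 9 lower with DOT1Li. Without the block they came to 10 and 4, beside 3.01% and 2.03% of all pairs. In each line all 18 same-numbered pairs of libraries correlated best with their own number, so the numbers carried a shared pattern throughout. The correlations were positive but mostly small, with medians of 0.0484 to 0.0897 by line, and passed 0.1 in 4, 4, 8 and 1 of 18 pairs. All 3 pairs passed 0.1 in 3 of the comparisons. There the block changed the call of GBP4 in Oci-Ly8 with DOT1Li and of no other member. The fit without the block did not use the pattern, and gave 1 pair of member and line higher with DOT1Li, against 4 with it. Without Oci-Ly8 DMSO replicate 3 and DOT1Li replicate 3 together, EZH2i was higher in 3 pairs. Fits of 1 line gave 2 pairs higher with DOT1Li and 2 lower with the combination, and DESeq2 gave 3 higher with DOT1Li. The cause of these shifts was not tested.

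Leaving out 1 library, the pairs ranged from 1 to 2 higher with DOT1Li, 4 to 5 higher and 2 to 3 lower with EZH2i, 8 to 9 higher and 1 to 2 lower with the combination, 6 to 7 higher over DOT1Li and 6 to 9 higher over EZH2i, and 0 to 1 above the sum (GBP1 in Oci-Ly18, 0.45 to 1.57). Between lines 2 to 3 members differed for the combination. The interferon-gamma genes ranged from 8 to 12 higher and 1 to 6 lower with DOT1Li, 18 to 24 higher and 20 to 24 lower with EZH2i, and 42 to 50 higher and 30 to 35 lower with the combination. Depth limits GBP2 and GBP5 outside SUDHL6 and GBP4 in Oci-Ly7, where groups hold few counts.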

Other observations

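Of 12 tested partners of the family in cell-autonomous defence, the combination raised 5 and lowered 3 in Oci-Ly8, raised 3 and lowered 4 in Oci-Ly18, raised 2 and lowered 2 in Oci-Ly7, and raised 2 and lowered 1 in SUDHL6. The shares of all genes called higher and lower were 18.1% and 16.9% in Oci-Ly8, 21.1% and 14% in Oci-Ly18, 17.7% and 12.2% in Oci-Ly7, and 22.6% and 16.8% in SUDHL6. CASP4, the caspase that the GBP coat activates, rose in Oci-Ly8 (0.26 ± 0.09) and was lower in Oci-Ly18 (-0.28 ± 0.09), and GSDMD, the pore-forming protein it cleaves, rose in SUDHL6 (0.25 ± 0.10). Of 6 enzymes of prenylation, 3 were lower in the SUDHL6 combination, among them ZMPSTE24 (-0.33 ± 0.09), which trims prenylated proteins. Of 5 tested interferon-inducible GTPases outside the members, all 5 rose in the SUDHL6 combination (median 1.10), beside 22.6% of all genes. GBP6 is among them and passed the filter on low counts only through that group, so its rise there was partly set by the filter. GVINP1, a pseudogene of a very large GTPase, rose there by 1.26 ± 0.38 and was lower in the Oci-Ly18 combination (-0.98 ± 0.23), with 5.77 CPM, against 11.5 in DMSO.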
